A study of Mus musculus with 12 samples.

Results

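Cells without TNF receptor 2 were compared with wild-type cells given the same cytokines, TNF plus TGF-β, across all genes expressed in either group. A gene entered the comparison when its level reached at least 1 FPKM (fragments relative to transcript length and to the total of the library) in at least 3 of the 6 libraries, which kept 12392 of the 47643 genes in the table. The cells were labelled as naive CD4 T cells of C57BL/6 mouse spleen, either wild type (WT) or Tnfr2-/-, lacking the receptor encoded by Tnfrsf1b. Each well held 500000 cells, activated over 3 days on antibodies to CD3 and CD28, coated at 2 μg/ml each. The groups compared received 20 ng/ml of TNF with 2 ng/ml of TGF-β, and have 3 WT and 3 Tnfr2-/- libraries. WT libraries without cytokine (Th0, n = 3) and with 20 ng/ml of IL-6 plus 2 ng/ml of TGF-β (n = 3) are given beside them for reference and were not tested here. Tnfr2-/- cells without cytokine were not analysed here, so a difference that the genotype makes before or without TNF cannot be told apart from one that needs it. The labels give no detail of the allele, and do not state whether the triplicates were separate mice or separate wells. P-values here therefore describe the spread among these libraries only, and that spread may be technical. All fold changes are differences of log2(FPKM + 1), Tnfr2-/- minus WT, which understate the change of low genes. Calls of higher or lower need an adjusted p below 0.05 (limma, Benjamini-Hochberg over the 12392 genes).

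TNF receptor 2 is carried mainly by lymphocytes, regulatory T cells among them, and responds best to the membrane-bound form of TNF. It has no death domain: it recruits TRAF proteins and the ubiquitin ligases bound to them, and so drives both the canonical and the alternative NF-κB pathway. TNF receptor 1, encoded by Tnfrsf1a, is more widely expressed and carries a death domain. TGF-β given with T cell activation induces Foxp3, the lineage factor of regulatory T (Treg) cells.

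The targeted gene followed the labels. Tnfrsf1b (ENSMUSG00000028599.10, chr4:145213463-145246870 on GRCm38, minus strand) stood at 74.4, 108 and 70.8 FPKM in WT replicates 1, 2 and 3, and at 4.87, 3.71 and 3.19 FPKM in the Tnfr2-/- libraries numbered 1, 2 and 4. The groups did not overlap (log2 difference -4.11, SE 0.26, adjusted p = 7.95e-07). The Tnfr2-/- levels also lay below those of every Th0 library, which ran from 17.4 to 22.6 FPKM.

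Markers of other cells separated the groups, and did so in every library. Per the table, the summed level of 12 B cell markers was 349, 439 and 330.13 FPKM in WT and 2200, 3829 and 4762 FPKM in Tnfr2-/- libraries, a ratio of means of 9.65. The WT libraries of Th0 (1273, 919 and 1381 FPKM) and of IL-6 plus TGF-β (958, 469 and 1042 FPKM) lay between. The ratio is thus set against the lowest WT group for these markers. The 16 macrophage and monocyte markers summed to 141, 232 and 125 FPKM against 1805, 1402 and 464 FPKM, a ratio of 7.37. For these the WT libraries with IL-6 plus TGF-β were lower still, at 74.7, 124 and 98.7 FPKM. MHC class II and dendritic cell markers were 8.96 times higher than in this WT group, which at 3052, 4133 and 2842 FPKM was below Th0, at 9987, 7057 and 11572 FPKM. The 6 genes of that list called higher were all of MHC class II antigen presentation, which B cells also express, while the dendritic cell markers Zbtb46 and Itgax were lower and Clec9a was listed at 0 in all 6 libraries. Neutrophil markers summed to 4.33, 3.28 and 45.2 FPKM against 170.23, 296 and 122 FPKM, while the neutrophil genes Elane, Ly6g and Mpo were at 0 in all 6. CD8 T cell markers went the other way, from 339, 307 and 358 FPKM in WT to 71.6, 78.9 and 29.5 FPKM. NK cell markers were lower as well, at 47.8, 51.8 and 58.4 against 9.16, 9.59 and 2.71 FPKM. Each of these sums kept the groups apart, and the two-sided exact permutation p was 0.10 for each, the smallest that 3 against 3 libraries allow. Basophil and mast cell markers overlapped (exact permutation p = 0.40). The T cell receptor constant genes Trac, Trbc1 and Trbc2, which mark T cells, overlapped: they summed to 2900, 3050 and 2988 FPKM in WT and 3405, 3009 and 2527 FPKM in Tnfr2-/-. In bulk RNA, fewer cells of a type and less RNA per cell cannot be told apart.

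**Figure D1:**
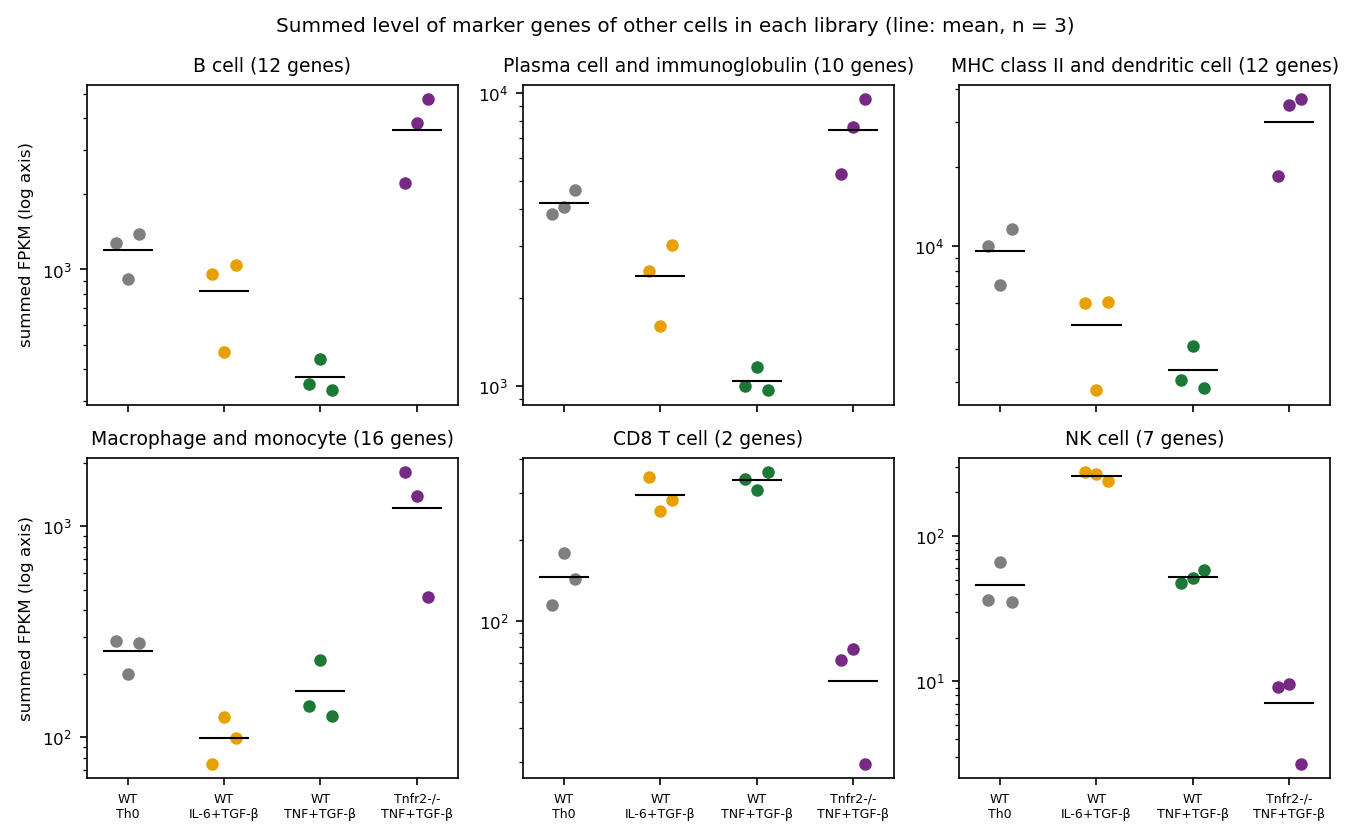
Summed FPKM of 6 marker lists (log axis) in each library of the 4 groups, with a line at each group mean. The Tnfr2-/- libraries sit at 2200 to 4762 FPKM for B cell markers and 464 to 1805 for macrophage markers, above every WT library with TNF plus TGF-β, and at 29.5 to 78.9 for CD8 T cell markers, below every one of them.

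The label of CD4 T cells was only partly borne out. Cd4 was at 42.3, 79.6 and 52.7 FPKM in WT and 17.6, 11.03 and 10.3 FPKM in Tnfr2-/- libraries (log2 difference -2.07, SE 0.54, adjusted p = 0.0101). Cd8a stood above it in all 3 WT libraries, at 184, 148 and 189 FPKM, and so did Cd8b1, at 155, 159 and 169 FPKM. In Tnfr2-/- libraries Cd8a was 29.04, 27.8 and 8.54 FPKM (log2 difference -3.10, SE 0.35, adjusted p = 4.02e-05) and Cd8b1 was 42.6, 51.1 and 20.9 FPKM (log2 difference -2.14, SE 0.27, adjusted p = 7.64e-05). Both CD8 genes thus exceeded Cd4 in every library except the Tnfr2-/- library numbered 4, where Cd8b1 alone did. The samples are therefore called cells labelled as CD4 T cells.

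Depth and RNA composition also moved with the genotype, and their part in the results was not tested. Estimated depth was 21600000 to 22700000 fragments in WT and 16800000 to 19300000 in Tnfr2-/- libraries, without overlap, where 3 fragments on a transcript of 1 kilobase correspond to 0.132 to 0.139 and 0.155 to 0.179 FPKM. Mitochondrial genes took 1.93% to 2.33% and 2.18% to 3.43% of FPKM, and immunoglobulin genes 0.22% to 0.29% and 1.47% to 2.59%. The nuclear RNA Malat1, chosen after its values were seen, was 460.1, 707 and 500.4 FPKM in WT and 3081, 5477 and 3932 FPKM in Tnfr2-/- libraries (log2 difference 2.89, SE 0.24, adjusted p = 6.09e-06). The 10 most abundant genes took 5.85% to 5.96% of all FPKM in WT and 7.10% to 10.6% in Tnfr2-/- libraries, so of these measures only the mitochondrial share overlapped. Spearman rank correlations, taken across genes (not independent replicates), ran from 0.976 to 0.985 within WT, 0.951 to 0.973 within Tnfr2-/- and 0.855 to 0.923 between them.

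The genotypes differed across much of the transcriptome. Of the 12392 genes, 2584 (20.9%) were called higher and 2285 (18.4%) lower in Tnfr2-/- cells, 39.3% in either direction, and each list count below stands against these shares. With a change of at least 2-fold, 1057 (8.53%) were higher and 975 (7.87%) lower. The median log2 difference over all genes was 0.002, and the 3 and 3 libraries did not overlap for 52.3% of genes, 27.6% higher and 24.7% lower in Tnfr2-/- cells. Most genes that entered, 10669 or 86.1%, reached 1 FPKM in all 6 libraries. A further 277 did so only in the 3 Tnfr2-/- libraries and 175 only in the 3 WT libraries, and since these entered through the group where they are high, they had to differ. Those that entered through WT alone include Fbxo2, Fbxo44, Scin, Wnt3, Idi2, Rpl10a-ps2, Snord13 and Ighg1. Those that entered through Tnfr2-/- alone include Zfp990, Il10, Ngp, C1qa and Hbb-bt. At the threshold, Arhgap33 entered with 1.19, 1.19 and 1.00 FPKM in WT and 0.64, 0.32 and 0.31 FPKM in Tnfr2-/- libraries. Armcx4 stayed out with 1.42, 0.99 and 1.15 FPKM in WT and 0.63, 0.58 and 0.43 FPKM in Tnfr2-/- libraries.

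**Figure D2:**
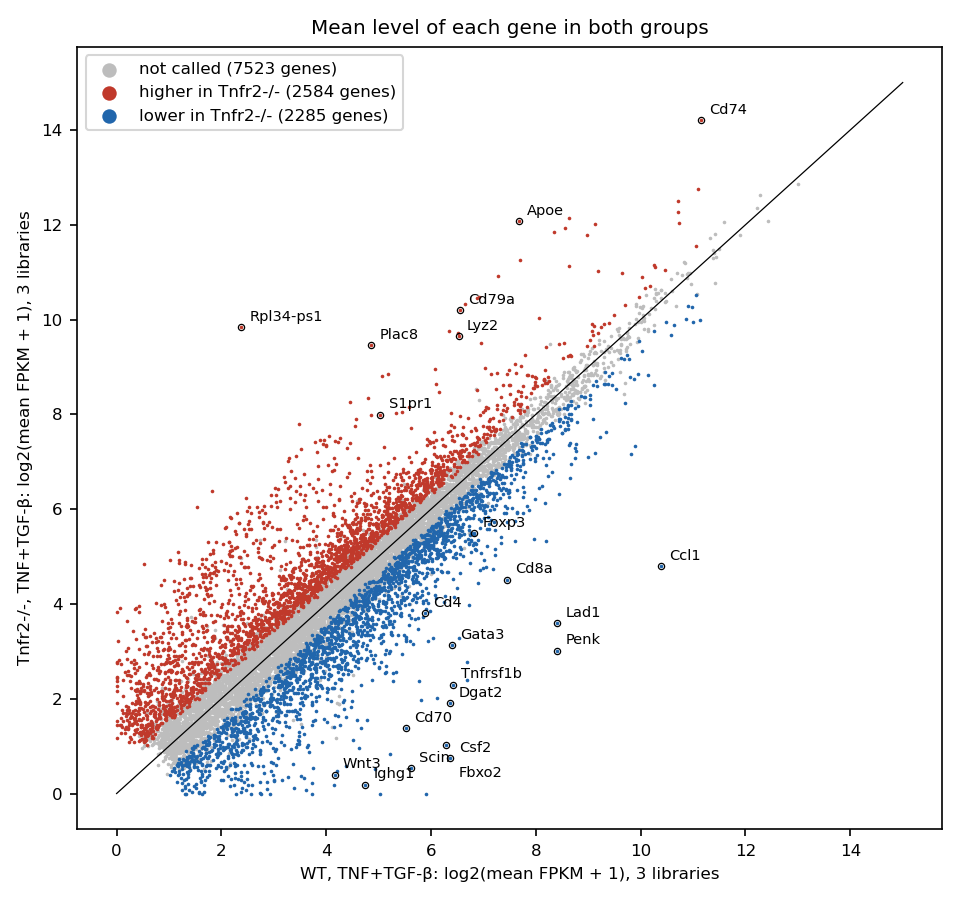
Mean level of each of the 12392 genes in WT (x axis) and Tnfr2-/- cells (y axis), as log2 of the mean FPKM + 1. Red points are the 2584 genes called higher, blue points the 2285 called lower, and grey points the 7523 not called.

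Nearly all of these calls ended when the B cell markers entered the model. With the mean log2 level of those markers as a covariate, 1 gene was called higher and 8 lower. The marker level differed by 2.74 between the genotypes against a spread of 0.39 within groups, and the median standard error rose 3.18 times, so within this model the genotype and the marker level can hardly be told apart. The genes that kept their call are given at the end, and every other call below ended with that covariate. For the B cell markers themselves that loss was built in, since the covariate is made of them.

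Among the core TNF genes, both receptors were lower. Tnfrsf1a, for TNF receptor 1, was 31.4, 24.6 and 26.01 FPKM in WT and 17.6, 14.9 and 10.7 FPKM in Tnfr2-/- cells (log2 difference -0.90, SE 0.19, adjusted p = 0.00326). Tnf itself was 15.2, 19.6 and 18.8 against 14.6, 9.21 and 12.2 FPKM and was not called (log2 difference -0.55, SE 0.22, adjusted p = 0.0601), although it passed on the TPM scale (adjusted p = 0.0499) and without Tnfr2-/- replicate 1 (adjusted p = 0.0316). Lta, for lymphotoxin α, fell from 128, 76.8 and 178 to 65.5, 62.5 and 37.1 FPKM (log2 difference -1.16, SE 0.31, adjusted p = 0.0104), a call that was lost without WT replicate 3 (adjusted p = 0.0505). Ltb, for the membrane partner of lymphotoxin α, was named after its values were seen and rose from 489.9, 519 and 558 to 567, 886 and 838 FPKM (log2 difference 0.52, SE 0.18, adjusted p = 0.0337). The groups did not overlap for any of these 4 genes, but the Ltb call was lost when any library other than Tnfr2-/- replicate 1 was left out. Of 5 tested genes in this list 3 were lower and 1 higher, with a median of -0.90; Ltbr did not reach the expression filter.

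Costimulatory and death receptors of the TNF receptor family were lower or not called. Of 10 tested, 6 fell, against 18.4% of all genes, none rose, and the median was -1.14. Fas, the death receptor, was 98.4, 88.9 and 80.9 FPKM in WT and 21.3, 18.1 and 18.2 FPKM in Tnfr2-/- cells (log2 difference -2.16, SE 0.15, adjusted p = 1.53e-06). Tnfrsf18, for GITR, was 370.2, 474 and 373 against 129, 142 and 95.5 FPKM (log2 difference -1.73, SE 0.18, adjusted p = 2.09e-05), and Tnfrsf9, for 4-1BB, ran from 391.13 to 427 FPKM in WT against 239, 168 and 97.5 FPKM (log2 difference -1.35, SE 0.25, adjusted p = 0.00124). All 3 receptors kept the groups fully apart. Cd27, Tnfrsf14, Tnfrsf21 and Tnfrsf25 overlapped between the genotypes and were not called. Th0 means were 28.3 FPKM for Fas, 296 for Tnfrsf18 and 270.1 for Tnfrsf9.

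The ligands of the family were lower with 1 exception. Of 9 tested, 8 fell, against 18.4% of all genes, none rose, and the median was -2.28. Cd70, the ligand of CD27, was 44.99, 48.9 and 40.4 FPKM in WT and 2.03, 1.32 and 1.42 FPKM in Tnfr2-/- cells (log2 difference -4.15, SE 0.17, adjusted p = 2.4e-08), and the Th0 mean was 3.68 FPKM. Tnfsf8, for CD30 ligand, was 63.6, 74.3 and 56.2 against 11.9, 9.01 and 5.18 FPKM (log2 difference -2.81, SE 0.24, adjusted p = 5.89e-06). Tnfsf4, for OX40 ligand, was 36.0, 41.9 and 35.5 against 4.56, 4.93 and 5.01 FPKM (log2 difference -2.73, SE 0.26, adjusted p = 1.34e-05), with a Th0 mean of 43.3 FPKM. The WT cytokine group was therefore near Th0 for Tnfsf4 and far above it for Cd70. The other 5 that fell, read after their values were seen, were Tnfsf10, Tnfsf14, Tnfsf9, Cd40lg and Tnfsf11, which encodes RANK ligand and went from 140.00, 119 and 118 to 34.3, 25.9 and 17.5 FPKM (log2 difference -2.28, SE 0.22, adjusted p = 1.49e-05). Fasl, for the ligand of Fas, was 8.26, 5.13 and 4.92 against 16.4, 7.81 and 6.96 FPKM and was not called. Without the Tnfr2-/- library numbered 4, 1 ligand became called higher.

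**Figure D3:**
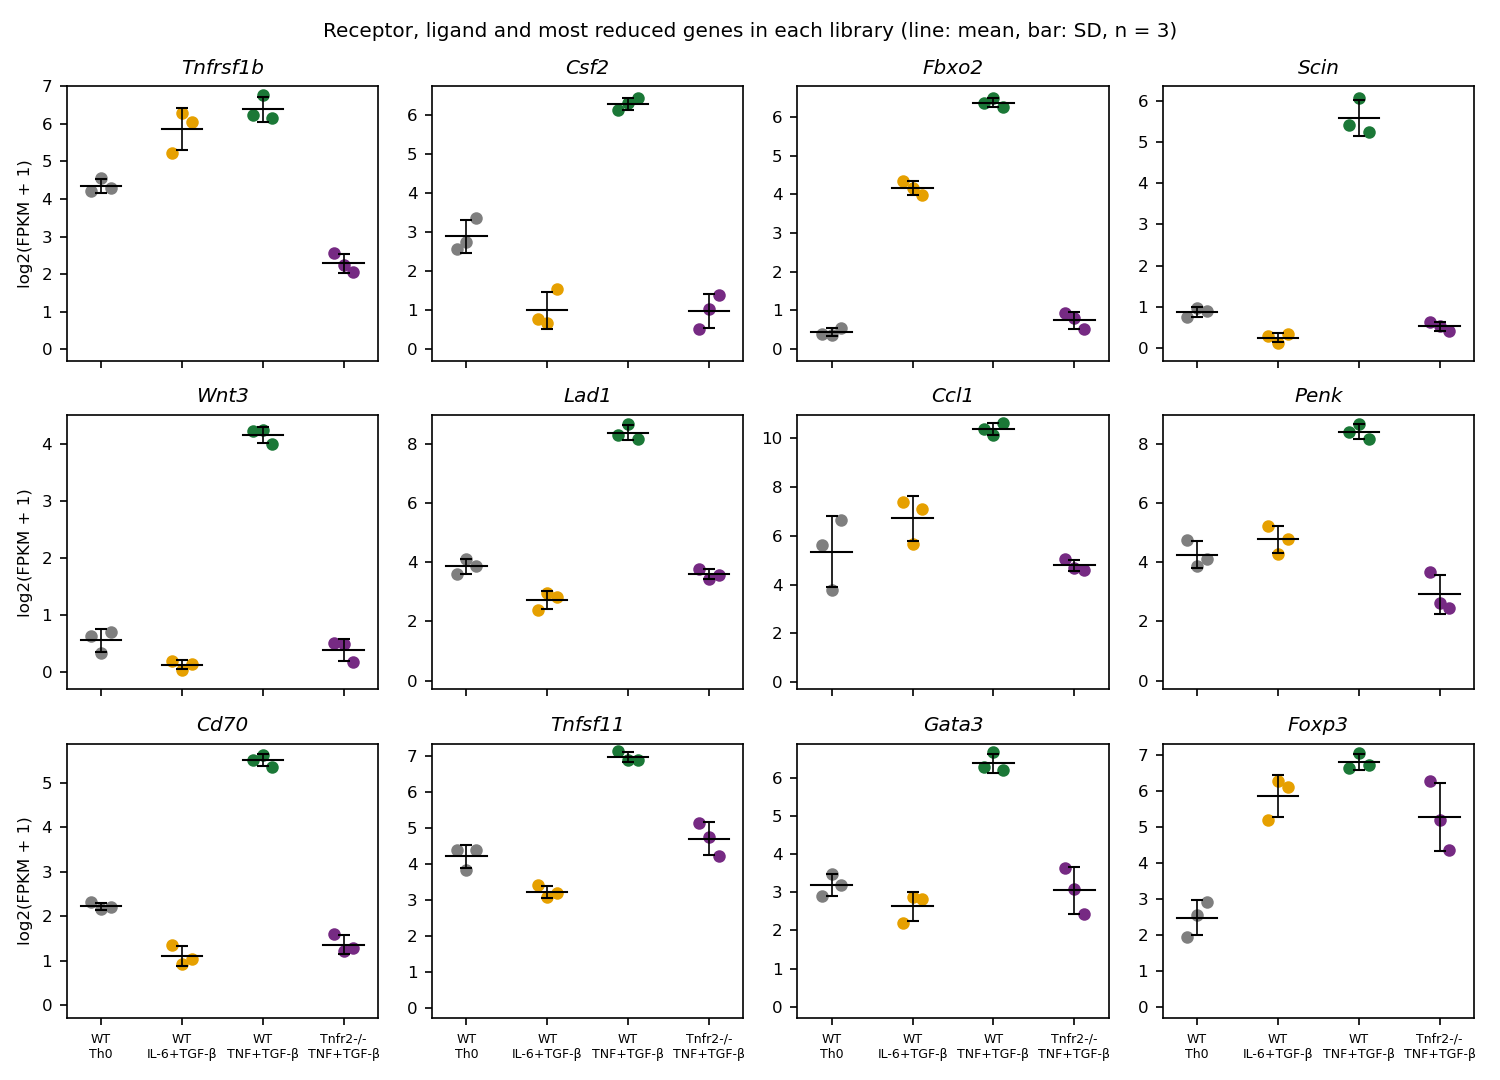
Level of 12 genes as log2(FPKM + 1) in each library of the 4 groups, with the group mean as a line and 1 SD as a bar. Tnfrsf1b, Csf2, Fbxo2, Scin, Wnt3, Lad1, Ccl1, Penk, Cd70, Tnfsf11, Gata3 and Foxp3 are each lower in all 3 Tnfr2-/- libraries than in all 3 WT libraries with TNF plus TGF-β.

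The signalling machinery below the receptors showed no common direction. Of 19 adaptors, kinases and NF-κB subunits, 4 were higher and 3 lower, with a median of 0.05 that turned to -0.08 on the TPM scale and to -0.05 on the TPM scale without immunoglobulin genes. The number called higher was 2 on the TPM scale, with T cell receptor genes as the scale, and without WT replicate 2, WT replicate 3 or Tnfr2-/- replicate 2. Nfkb2, which encodes the precursor of the alternative-pathway subunit, was 229, 255 and 215 FPKM in WT and 79.3, 62.1 and 45.5 FPKM in Tnfr2-/- cells (log2 difference -1.92, SE 0.17, adjusted p = 7.66e-06). Nfkb1, for the canonical p50 precursor, was 185, 189 and 175 against 117, 87.9 and 75.3 FPKM (log2 difference -0.99, SE 0.25, adjusted p = 0.00892). Traf5, an adaptor of several receptors of this family, rose from 22.9, 19.9 and 21.6 to 55.5, 71.99 and 86.3 FPKM (log2 difference 1.67, SE 0.19, adjusted p = 3.99e-05). These 3 genes kept the groups apart, whereas Rela, for the canonical p65 subunit, and Relb, for the alternative-pathway partner, overlapped. Rela was 110.1, 134 and 106 against 143, 131 and 108 FPKM (log2 difference 0.12, SE 0.17, adjusted p = 0.59), and Relb 118, 125 and 108 against 107, 119.9 and 122 FPKM (log2 difference -0.01, SE 0.11, adjusted p = 0.941), both named after their values were seen. Traf5 moved in the direction of the B cell markers, and the part those cells have in it was not tested.

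Inhibitors of NF-κB signalling, some of which NF-κB itself induces, were also mixed as a list: of 11, 3 were higher and 3 lower. The median of -0.03 became 0.02 without WT replicate 2 and 0.08 without the Tnfr2-/- library numbered 4. The 3 that fell included Tnfaip3, for the ubiquitin-editing enzyme A20, at 50.96, 77.7 and 40.1 FPKM in WT and 19.04, 15.3 and 12.8 FPKM in Tnfr2-/- cells (log2 difference -1.74, SE 0.32, adjusted p = 0.00131). Tnip1, for a partner of A20, fell from 89.7, 122 and 82.1 to 55.2, 38.7 and 36.3 FPKM (log2 difference -1.16, SE 0.31, adjusted p = 0.0112). Nfkbia, for the inhibitor IκBα, was added after its values were seen and fell from 700.3, 837 and 669.9 to 346, 426 and 336 FPKM (log2 difference -0.99, SE 0.14, adjusted p = 0.000199). The Tnfr2-/- libraries for these 3 genes lay close to the Th0 means, which were 14.1 FPKM for Tnfaip3, 26.0 for Tnip1 and 252 for Nfkbia, or above them. Nfkbid, for a nuclear member of the IκB family, rose from 21.2, 20.7 and 21.3 to 52.1, 43.0 and 36.5 FPKM (log2 difference 1.01, SE 0.17, adjusted p = 0.000636).

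Because several of these genes are known NF-κB targets, the stretch upstream of the gene start was read for the letters of a κB site. Each form searched starts with GGG and ends with CC, 10 bases in all. After GGG the first form has 2 free bases, TT and 1 free base, and the other has 3 free bases and TT. Both were read on either strand, overlap each other, and were chosen after the data were seen. Promoters of 4 genes that fell are printed, 250 bases up to the start of the RefSeq gene, from GRCm38.p6, 5′ to 3′ on the gene's strand, with matches in capitals. Nfkbia lies at chr12:55492648-55492897 (minus strand), Tnfaip3 at chr10:19015411-19015660 (minus), Nfkb2 at chr19:46304487-46304736 (plus) and Ccl1 at chr11:82179813-82180062 (minus).
Nfkbia: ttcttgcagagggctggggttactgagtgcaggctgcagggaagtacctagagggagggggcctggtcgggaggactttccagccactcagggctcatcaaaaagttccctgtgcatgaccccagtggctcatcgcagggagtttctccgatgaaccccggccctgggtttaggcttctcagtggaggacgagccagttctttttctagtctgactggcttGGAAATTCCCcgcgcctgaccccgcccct
Tnfaip3: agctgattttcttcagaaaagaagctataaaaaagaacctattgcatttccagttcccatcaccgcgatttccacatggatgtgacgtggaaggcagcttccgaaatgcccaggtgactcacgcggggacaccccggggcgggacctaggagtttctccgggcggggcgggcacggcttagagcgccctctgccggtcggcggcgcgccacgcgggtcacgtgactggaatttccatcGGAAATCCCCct
Nfkb2: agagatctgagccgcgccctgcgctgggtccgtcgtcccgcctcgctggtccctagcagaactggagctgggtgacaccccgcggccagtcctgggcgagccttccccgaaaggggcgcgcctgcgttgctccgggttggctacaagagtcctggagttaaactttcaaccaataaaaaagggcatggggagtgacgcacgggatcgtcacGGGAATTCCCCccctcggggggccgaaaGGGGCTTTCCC
Ccl1: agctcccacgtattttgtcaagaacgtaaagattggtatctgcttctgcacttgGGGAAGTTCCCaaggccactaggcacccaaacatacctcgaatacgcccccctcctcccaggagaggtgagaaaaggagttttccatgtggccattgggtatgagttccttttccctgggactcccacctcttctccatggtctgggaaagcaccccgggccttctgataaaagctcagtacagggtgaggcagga
Nfkbia held 1 match, which began 29 bases before the start. Tnfaip3 held 1 match in the printed stretch and 1 more that began 33 bases after the start. Nfkb2 held 5 overlapping matches in 2 runs of capitals, and Ccl1 held 2 overlapping matches in 1 run. Over windows from 250 bases before to 50 after the start, either form was present in 8.30% of 32851 promoters and in 9.38% of 27025 genes. Among the genes of both NF-κB lists with a promoter entry, 5 of 5 that were lower, 4 of 6 that were higher and 5 of 14 that were not called held a match. Among the other named genes with an entry, a match was present in 8 of 49 that were lower, 3 of 24 that were higher and 0 of 5 that were not called, and Tnfrsf1b, Csf2, Fbxo2, Scin, Lad1, Wnt3, Foxp3 and Gata3 held none. A match is a run of letters and does not show binding.

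Of 18 Treg genes tested, 9 fell, against 18.4% of all genes, 3 rose and 6 were not called, with a median of -0.81. Foxp3 was 98.95, 132 and 104 FPKM in WT and 76.05, 35.9 and 19.7 FPKM in Tnfr2-/- cells, without overlap (log2 difference -1.52, SE 0.42, adjusted p = 0.0132), and the spread within the Tnfr2-/- group was wide. The call was lost without the library numbered 4 (log2 difference -1.07, adjusted p = 0.0573). Il2ra, for the α chain of the IL-2 receptor, behaved alike at 170.1, 157 and 206 against 128, 68.3 and 47.1 FPKM (log2 difference -1.23, SE 0.34, adjusted p = 0.0123) and was also lost without that library (-0.91, adjusted p = 0.0561). Ikzf2, for the Treg factor Helios, was 22.5, 24.2 and 16.9 against 3.45, 2.15 and 2.11 FPKM (log2 difference -2.64, SE 0.23, adjusted p = 6.65e-06). Itgae, for the αE integrin CD103 that TGF-β induces, was 325, 462 and 248 against 116, 69.3 and 51.96 FPKM (log2 difference -2.14, SE 0.30, adjusted p = 0.000166). Penk, for the opioid precursor proenkephalin, fell from 334, 400.2 and 284 to 11.7, 5.07 and 4.51 FPKM (log2 difference -5.49, SE 0.33, adjusted p = 6.38e-07). Il10 was barely present and rose from 0.04, 0.22 and 0 to 1.1, 2.5 and 2.09 FPKM (log2 difference 1.39, SE 0.22, adjusted p = 0.000416). Macrophages and B cells can also express Il10, and the part of their RNA in this rise was not tested.

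Il17a and Il17f, for the IL-17 cytokines that mark Th17 cells, were not called. Il17a was 7.36, 1.3 and 4.67 against 6.57, 5.08 and 5.92 FPKM (log2 difference 0.52, SE 0.42, adjusted p = 0.357). For Il17f the levels were 180.2, 42.2 and 196 against 92.2, 113 and 143 FPKM (log2 difference 0.00, SE 0.47, adjusted p = 0.997). The genotypes overlapped for both genes, and the 95% intervals of the differences were -0.41 to 1.44 and -1.02 to 1.01. The mean of Il17a under IL-6 plus TGF-β was 121 FPKM and that of Il17f 1777 FPKM, far above both TNF groups. Of 15 Th17 genes 6 were lower, against 18.4% of all genes, and none higher, with a median of -0.46. Those that fell included Tmem176a, a membrane protein of Th17 and myeloid cells, at 50.8, 58.6 and 25.7 against 8.06, 9.96 and 8.72 FPKM (log2 difference -2.14, SE 0.28, adjusted p = 0.000105). Batf, an AP-1 factor, was 51.1, 69.4 and 56.3 against 28.3, 26.3 and 14.4 FPKM (log2 difference -1.36, SE 0.22, adjusted p = 0.000504), and Ahr, the aryl hydrocarbon receptor, 13.4, 19.8 and 10.8 against 7.52, 5.39 and 4.27 FPKM (log2 difference -1.21, SE 0.26, adjusted p = 0.00325). Without replicate 2 of either genotype, 1 gene of this list became called higher.

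Genes of the Th2 and Th9 programs were lower where they were called: 4 of 6 fell, with a median of -1.53 that was -0.99 without the Tnfr2-/- library numbered 4. Gata3, the lineage factor of Th2 cells, was 77.1, 100.4 and 71.99 FPKM in WT and 11.5, 7.54 and 4.36 FPKM in Tnfr2-/- cells, near the Th0 mean of 8.28 FPKM (log2 difference -3.33, SE 0.29, adjusted p = 8.46e-06). Ccr4, a chemokine receptor of Th2 and Treg cells, was 52.8, 53.6 and 52.1 against 14.6, 9.6 and 6.02 FPKM (log2 difference -2.36, SE 0.26, adjusted p = 3.35e-05). Il9 overlapped between the groups, at 10.1, 3.92 and 42.6 against 2.94, 5.57 and 0 FPKM (log2 difference -2.17, SE 0.73, adjusted p = 0.0329). Its call was lost without WT replicate 1, WT replicate 3 or the Tnfr2-/- library numbered 4 (adjusted p = 0.0605, 0.137 and 0.142). Among growth factor cytokines 2 of 5 fell. Csf2, for GM-CSF (chr11:54247271-54249667 on GRCm38), was 68.5, 77.8 and 85.95 FPKM in WT and 0.42, 1.02 and 1.63 FPKM in Tnfr2-/- cells (log2 difference -5.32, SE 0.29, adjusted p = 3.92e-07), with a Th0 mean of 6.62 FPKM. Tgfb1 fell from 301, 359 and 288 to 169, 94.2 and 66.6 FPKM (log2 difference -1.61, SE 0.41, adjusted p = 0.00863). Il2 was near the filter, at 1.31, 0.73 and 1.91 against 1.33, 0.68 and 0.84 FPKM, and was not called (log2 difference -0.23, SE 0.22, adjusted p = 0.432).

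Th1 and cytotoxic genes were lower in 7 of 14 cases and higher in 1, with a median of -0.75. Tbx21, for the Th1 factor T-bet, was 8.5, 5.67 and 10.4 against 0.71, 0.73 and 1.68 FPKM (log2 difference -2.17, SE 0.25, adjusted p = 4.1e-05), while Ifng overlapped at 3.0, 1.68 and 6.77 against 1.4, 2.22 and 3.78 FPKM (log2 difference -0.39, SE 0.47, adjusted p = 0.535). Il18rap, an IL-18 receptor subunit, fell from 25.5, 22.99 and 20.5 to 2.48, 1.87 and 1.49 FPKM (log2 difference -3.03, SE 0.17, adjusted p = 3.92e-07). Nkg7, a cytotoxic granule gene, fell from 933, 881 and 1024 to 224, 191 and 63.3 FPKM (log2 difference -2.75, SE 0.36, adjusted p = 0.000105). CD8 T cell and NK cell markers, given earlier, moved in the same direction as these genes, and their part in the falls was not tested. Without the Tnfr2-/- library numbered 4, 2 genes of the list were called higher in place of 1.

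In the TGF-β pathway 5 of 16 genes were lower and 2 higher, against 18.4% and 20.9% of all genes, with a median of -0.17. The number lower was 3, near the share of all genes, without WT replicate 2, Tnfr2-/- replicate 2 or the library numbered 4. The median was -0.08 without WT replicate 2, -0.07 without Tnfr2-/- replicate 2 and -0.28 without Tnfr2-/- replicate 1. Tgfb3 rose from 1.09, 0.57 and 1.26 to 7.29, 5.49 and 6.82 FPKM (log2 difference 1.94, SE 0.32, adjusted p = 0.000576). The receptors Tgfbr1 and Tgfbr2 and the signal transducers Smad3 and Smad4 overlapped between the genotypes and were not called.

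Chemokine ligands were among the largest differences: 6 of 9 fell and 2 rose, with a median of -1.53. Ccl1, the ligand of CCR8 and the gene of the last printed promoter, was 1334, 1117 and 1555 FPKM in WT and 32.2, 24.7 and 23.5 FPKM in Tnfr2-/- cells (log2 difference -5.59, SE 0.59, adjusted p = 2.45e-05), with a Th0 mean of 53.7 FPKM. Ccl3, which draws macrophages and T cells, fell from 83.1, 69.5 and 123 to 10.2, 12.7 and 3.11 FPKM (log2 difference -3.40, SE 0.39, adjusted p = 4.56e-05). Ccl5 rose from 13.6, 18.5 and 15.3 to 57.4, 64.3 and 151 FPKM, highest in the library numbered 4 (log2 difference 2.32, SE 0.28, adjusted p = 6.33e-05). The genotypes did not overlap for any of these 3 genes.

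Genes of naive and recirculating T cells leaned upward: 6 of 13 were higher, against 20.9% of all genes, and 3 lower, with a median of 0.55. The number higher was 3 without WT replicate 1 or WT replicate 3. With the macrophage markers as a covariate it was 1, and the median was -0.19; without Tnfr2-/- replicate 1 the median was 0.31. S1pr1, the receptor that lets lymphocytes leave lymphoid tissue, rose from 26.04, 43.0 and 26.3 to 181, 242 and 339 FPKM, in the same library order as the B cell markers (log2 difference 2.95, SE 0.28, adjusted p = 1.25e-05). Il7r, for the IL-7 receptor, fell from 25.1, 35.9 and 18.7 to 14.9, 11.9 and 10.2 FPKM (log2 difference -1.02, SE 0.25, adjusted p = 0.0077). Dapl1 fell from 29.3, 32.3 and 32.5 to 5.55, 7.8 and 2.65 FPKM (log2 difference -2.44, SE 0.25, adjusted p = 1.83e-05). B cells also express S1pr1, and the part of their RNA in this rise was not tested.

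T cell receptor signalling genes were lower in 9 of 20 cases and higher in 1, with a median of -0.40, although the CD3 chains and T cell receptor constant genes were not called. Thy1, a surface protein of mouse T cells, was 107, 111 and 126 against 41.5, 33.1 and 27.3 FPKM (log2 difference -1.74, SE 0.26, adjusted p = 0.000257). The single rise was Cd28, named after its values were seen, at 46.1, 40.5 and 40.0 against 85.6, 71.3 and 75.4 FPKM (log2 difference 0.86, SE 0.12, adjusted p = 0.000159). With the T cell receptor constant genes as the scale, or without the library numbered 4, 2 genes were called higher, and without that library the median was -0.24. Coinhibitory receptors had 2 of 9 lower and 1 higher. Cd160 fell from 124, 130.2 and 117 to 44.96, 36.95 and 16.1 FPKM (log2 difference -2.0, SE 0.29, adjusted p = 0.000202), and Cd274, for PD-L1, from 15.1, 16.8 and 14.6 to 6.61, 5.24 and 2.49 FPKM (log2 difference -1.58, SE 0.31, adjusted p = 0.00171). The rise was Btla, at 27.7, 22.7 and 21.9 against 31.4, 39.5 and 51.4 FPKM (log2 difference 0.71, SE 0.24, adjusted p = 0.0344). B cells express Btla, and the call was lost on the TPM scale (adjusted p = 0.0672) and without WT replicate 2, WT replicate 3, Tnfr2-/- replicate 2 or the library numbered 4 (adjusted p 0.077 to 0.135).

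Survival genes of the BCL2 family were mixed, with 4 of 14 lower and 2 higher and a median of -0.07. Bcl2l1, for the survival protein BCL-xL and a known NF-κB target, fell from 85.3, 87.2 and 83.95 to 22.3, 15.2 and 12.97 FPKM (log2 difference -2.31, SE 0.23, adjusted p = 1.59e-05). The death-promoting members Bid, at 12.4, 14.2 and 12.3 against 27.9, 29.98 and 24.6 FPKM (log2 difference 1.03, SE 0.13, adjusted p = 0.000101), and Bmf, at 1.63, 2.88 and 1.66 against 5.2, 5.74 and 4.66 FPKM (log2 difference 1.04, SE 0.20, adjusted p = 0.00147), rose. Bcl2 and Mcl1, which also promote survival, overlapped and were not called. Among AP-1, EGR and NR4A factors, which T cell activation induces, 7 of 14 were lower and 1 higher, with a median of -0.59. Nr4a3 fell from 17.9, 9.04 and 18.5 to 4.37, 4.4 and 2.17 FPKM (log2 difference -1.78, SE 0.31, adjusted p = 0.000871). Nr4a2 overlapped at 22.8, 13.2 and 18.5 against 13.9, 5.53 and 5.97 FPKM (log2 difference -1.09, SE 0.32, adjusted p = 0.017), a call that was lost when WT replicate 1, WT replicate 3, Tnfr2-/- replicate 2 or the library numbered 4 was left out (adjusted p 0.0515 to 0.0747). The 1 rise, Fos, was named after its values were seen, was 3.24, 4.75 and 3.34 against 11.8, 10.6 and 5.12 FPKM (log2 difference 1.03, SE 0.28, adjusted p = 0.0126), and was not called without Tnfr2-/- replicate 2.

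Type I interferon response genes leaned upward, with 7 of 17 higher, against 20.9% of all genes, and 2 lower, at low levels. The median was 0.65, and 0.37 without the Tnfr2-/- library numbered 4. Usp18, which restrains interferon signalling, was 2.86, 2.03 and 1.95 FPKM in WT and 7.53, 6.28 and 15.6 FPKM in Tnfr2-/- cells (log2 difference 1.63, SE 0.27, adjusted p = 0.00056). Rtp4 was 1.45, 2.07 and 1.09 against 4.56, 6.77 and 19.9 FPKM (log2 difference 1.95, SE 0.41, adjusted p = 0.00268) and Ifit3 1.67, 0.55 and 0.35 against 2.6, 3.46 and 22.1 FPKM (log2 difference 2.02, SE 0.70, adjusted p = 0.0383). For all 3 genes the library numbered 4, which also had the highest B cell markers, was the highest. The Ifit3 call was lost without it (log2 difference 1.18, adjusted p = 0.16) and without WT replicate 2 or WT replicate 3 (adjusted p = 0.0938 and 0.112). Th0 means were higher still for Ifit3, at 16.1 FPKM, and similar for Usp18, at 10.2 FPKM. The interferon-inducible GTPases showed 3 of 11 higher and 2 lower. Their median of 0.18 turned to -0.04 without Tnfr2-/- replicate 1 and was 0.06 to 0.29 without each of the other libraries. Gbp2 fell from 48.9, 45.9 and 34.3 to 19.3, 16.2 and 14.7 FPKM (log2 difference -1.30, SE 0.17, adjusted p = 0.000103), Tgtp2 fell from 63.9, 66.5 and 56.5 to 40.2, 34.5 and 31.1 FPKM (log2 difference -0.81, SE 0.12, adjusted p = 0.000284), and Gbp9 rose from 7.93, 7.9 and 6.39 to 14.5, 14.97 and 23.9 FPKM (log2 difference 1.13, SE 0.21, adjusted p = 0.00128).

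Most cell cycle genes were lower. All 20 genes of mitosis and G2/M fell, with a median of -1.92 and a range of -2.51 to -1.43, and all 20 kept the groups apart. Plk1, a mitotic kinase, was 126, 91.9 and 138 FPKM in WT and 31.8, 15.6 and 15.1 FPKM in Tnfr2-/- cells (log2 difference -2.51, SE 0.28, adjusted p = 3.4e-05). Bub1b, of the spindle checkpoint, was 75.9, 69.8 and 79.5 against 24.6, 13.96 and 7.74 FPKM (log2 difference -2.34, SE 0.30, adjusted p = 9.52e-05), and Tpx2, a spindle assembly factor, 67.7, 53.5 and 65.8 against 21.7, 10.8 and 8.1 FPKM (log2 difference -2.23, SE 0.26, adjusted p = 4.58e-05). Each was highest in Tnfr2-/- replicate 1 and lowest in the library numbered 4, the reverse of the B cell markers. Of 20 genes of DNA replication and S phase, 17 fell and none rose, with a median of -1.34. Uhrf1, which maintains DNA methylation at replication, was 131, 121 and 140.2 against 44.4, 21.2 and 13.9 FPKM (log2 difference -2.41, SE 0.36, adjusted p = 0.000259). Ccne2, for cyclin E2, was 30.1, 16.1 and 22.4 against 8.99, 4.83 and 4.0 FPKM (log2 difference -1.81, SE 0.27, adjusted p = 0.000313), and Tyms, for thymidylate synthase, 262, 198 and 296 against 97.3, 72.7 and 49.3 FPKM (log2 difference -1.80, SE 0.23, adjusted p = 8.38e-05). With the B cell covariate the medians were -0.77 for mitosis and -0.03 for S phase, with no call in either list.

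Biosynthetic genes were lower where they were called. Of 18 MYC and ribosome biogenesis genes 10 fell and none rose, with a median of -0.56. That number was 6 without WT replicate 1, 3 without WT replicate 3 and 5 without the library numbered 4. It was 14 without Tnfr2-/- replicate 1, 15 on the TPM scale and 13 on the median-ratio scale. Myc was 169, 193 and 174 FPKM in WT and 116, 77.5 and 48.97 FPKM in Tnfr2-/- cells (log2 difference -1.22, SE 0.26, adjusted p = 0.00325). Srm, for spermidine synthase, was 171, 122 and 194 against 115, 106 and 57.8 FPKM (log2 difference -0.83, SE 0.23, adjusted p = 0.0147), and was not called without WT replicate 1 or WT replicate 3 (adjusted p = 0.0512 and 0.0652). Polr1b, for a subunit of RNA polymerase I, overlapped at 18.5, 13.4 and 17.98 against 14.8, 6.55 and 5.34 FPKM (log2 difference -0.94, SE 0.34, adjusted p = 0.0466), a call lost without any 1 library other than Tnfr2-/- replicate 1. Of 20 cholesterol synthesis genes 9 fell and none rose, with a median of -0.44. That number was 5 without WT replicate 1 or WT replicate 3. Idi1, for isopentenyl diphosphate isomerase, was 116, 91.8 and 105 against 48.03, 38.8 and 26.3 FPKM (log2 difference -1.48, SE 0.19, adjusted p = 8.07e-05). Lss, for lanosterol synthase, was 14.5, 11.7 and 17.9 against 10.5, 7.23 and 4.6 FPKM (log2 difference -0.94, SE 0.31, adjusted p = 0.0291), a call lost without WT replicate 1, WT replicate 3, Tnfr2-/- replicate 2 or the library numbered 4 (adjusted p 0.0671 to 0.121).

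Glycolysis genes depended on the scale. Of 18, 6 fell and 2 rose, with a median of -0.47, and 10 fell on the TPM, median-ratio and upper-quartile scales. The number was 11 without Tnfr2-/- replicate 1, and 2 without WT replicate 1, WT replicate 3 or the library numbered 4, where the median was -0.29 without that last library. Hk1, for hexokinase 1, was 57.6, 70.2 and 53.3 against 26.9, 15.1 and 11.2 FPKM (log2 difference -1.79, SE 0.42, adjusted p = 0.00588), and Slc16a3, a lactate exporter, 34.8, 31.3 and 37.4 against 23.1, 12.8 and 9.87 FPKM (log2 difference -1.20, SE 0.32, adjusted p = 0.0105). Aldoc, for an aldolase, rose from 2.75, 2.37 and 1.6 to 11.6, 14.3 and 12.2 FPKM (log2 difference 2.09, SE 0.17, adjusted p = 5.66e-06). Of 18 genes of the amino acid response that ATF4 drives, 10 fell and 3 rose, with a median of -1.14. Nupr1, a stress-induced chromatin protein, fell from 185, 167 and 229.9 to 45.7, 51.5 and 20.8 FPKM (log2 difference -2.36, SE 0.38, adjusted p = 0.000456). Cebpb, a transcription factor, fell from 165, 90.5 and 189.5 to 36.9, 38.6 and 19.5 FPKM (log2 difference -2.19, SE 0.28, adjusted p = 9.99e-05), and Slc7a5, for a leucine transporter, from 55.5, 54.3 and 65.8 to 23.5, 11.8 and 6.04 FPKM (log2 difference -2.19, SE 0.53, adjusted p = 0.00667). The 3 that rose were Atf4 itself, Ddit3 and Slc3a2, named after their values were seen. Ddit3, for the stress factor CHOP, was 26.3, 43.6 and 24.9 against 95.1, 133 and 135 FPKM (log2 difference 1.93, SE 0.21, adjusted p = 3.08e-05).

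**Figure D4:**
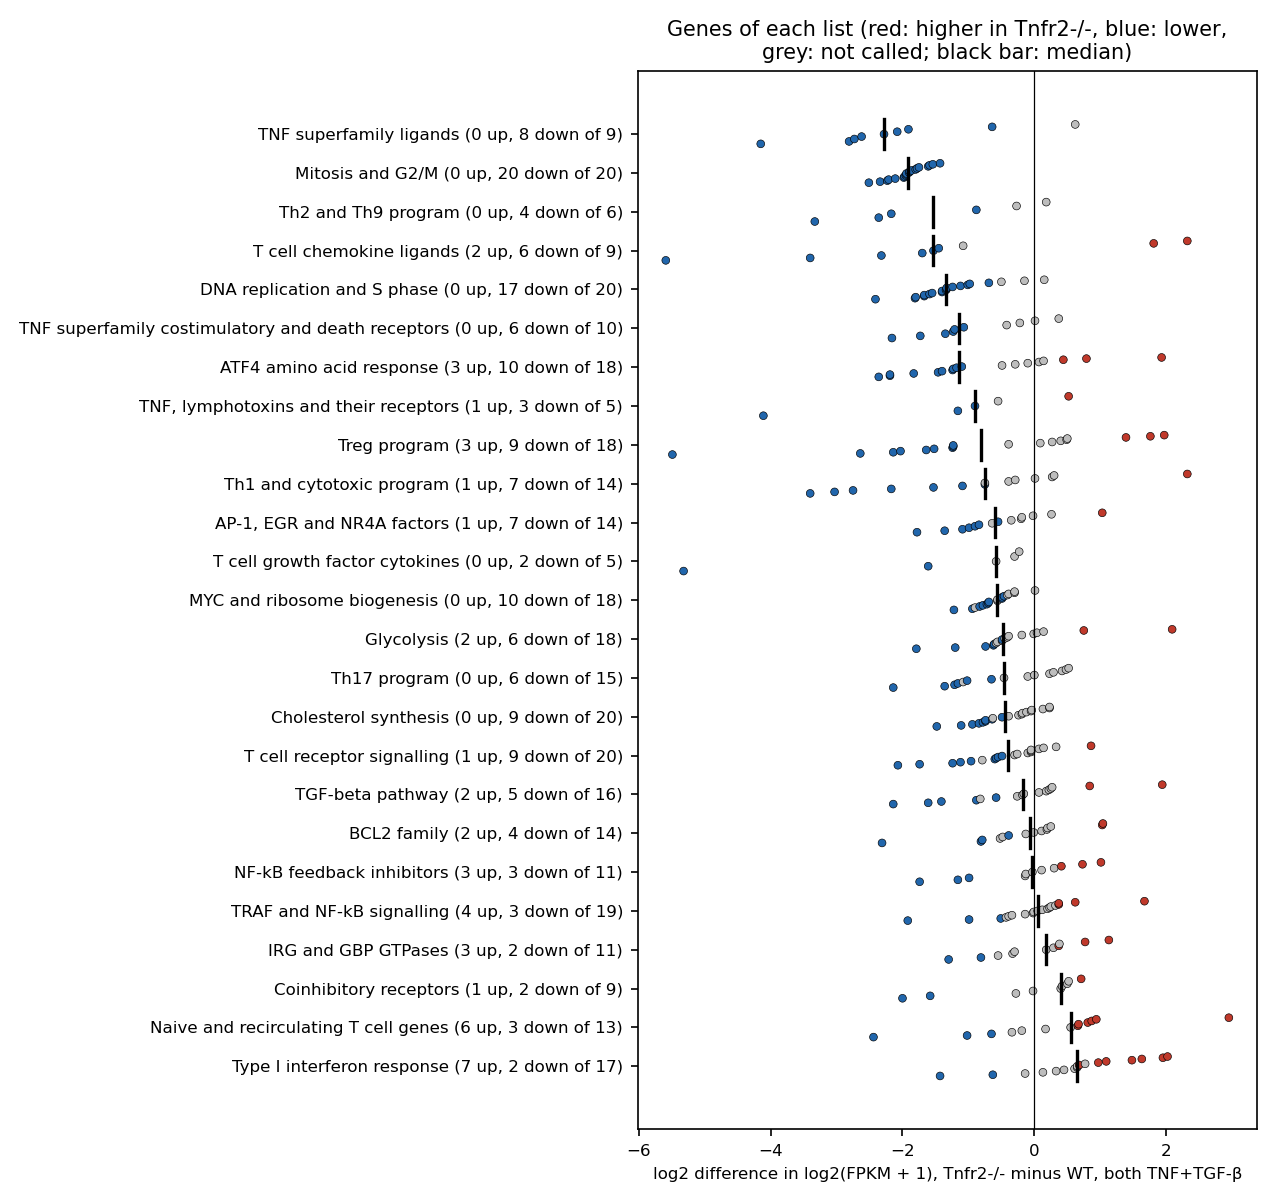
Log2 difference (Tnfr2-/- minus WT, TNF plus TGF-β) of each tested gene in each list, with a bar at the list median and the numbers called higher and lower. The marker lists of other cells are not drawn. The 20 mitosis genes all lie below 0, between -2.51 and -1.43.

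Among the largest falls, Fbxo2, Scin and Wnt3 were below 1 FPKM in every Tnfr2-/- library, while Lad1 and Ccl1 were still detected well above that. Fbxo2 (chr4:148160621-148166424), for an F-box protein that binds glycoproteins and 2.91 Mb from Tnfrsf1b itself, was 81.2, 88.9 and 75.1 FPKM in WT and 0.91, 0.73 and 0.42 FPKM in Tnfr2-/- cells (log2 difference -5.62, SE 0.16, adjusted p = 2.45e-09). Scin (chr12:40059769-40134228), for the actin-severing protein scinderin, was 41.7, 65.5 and 36.5 against 0.56, 0.45 and 0.34 FPKM (log2 difference -5.03, SE 0.20, adjusted p = 2.4e-08). Lad1 (chr1:135818598-135833342), for ladinin, a protein of anchoring filaments, was 318, 409 and 288 against 12.6, 9.78 and 11.03 FPKM (log2 difference -4.80, SE 0.19, adjusted p = 2.4e-08). Dgat2, for an enzyme of the last step of triglyceride synthesis, was 75.4, 109 and 59.5 against 5.39, 1.98 and 0.93 FPKM (log2 difference -4.59, SE 0.35, adjusted p = 3.65e-06). Wnt3, a secreted Wnt ligand, was 17.8, 17.9 and 14.98 against 0.42, 0.41 and 0.13 FPKM (log2 difference -3.76, SE 0.17, adjusted p = 5.63e-08). None of these 5 genes overlapped between the genotypes, which for Fbxo2, Scin and Wnt3 followed from their entry through WT alone. Th0 means were 0.35 FPKM for Fbxo2, 0.84 for Scin, 13.7 for Lad1, 3.14 for Dgat2 and 0.483 for Wnt3, so the Tnfr2-/- libraries were near Th0 and the WT libraries stood apart. Under IL-6 plus TGF-β the means were 17.0 FPKM for Fbxo2, 0.197 for Scin and 5.73 for Lad1. The small nucleolar RNA Snord13 was 34.8, 87.6 and 53.9 FPKM in WT and was listed at 0 in all 3 Tnfr2-/- and all 3 Th0 libraries. Together with Ccl1, Penk and Csf2, given above, these are the 8 largest falls by the naming rule and the fixed gene Wnt3.

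The largest rises were in part genes of B cells and myeloid cells. Rpl34-ps1, a processed pseudogene of a ribosomal protein, was 4.62, 3.21 and 4.73 FPKM in WT and 880.1, 1050.3 and 804 FPKM in Tnfr2-/- cells (log2 difference 7.46, SE 0.25, adjusted p = 7.06e-09). It is nearly a copy of other ribosomal gene sequence, so the assignment of its reads is uncertain. Plac8, a gene of several blood cells, rose from 27.3, 26.7 and 29.6 to 389, 821 and 907 FPKM (log2 difference 4.52, SE 0.34, adjusted p = 2.95e-06), with a Th0 mean of 353 FPKM, so here the WT cytokine group was the low one. Crisp3 rose from 1.46, 2.82 and 1.36 to 42.4, 90.3 and 61.2 FPKM (log2 difference 4.48, SE 0.31, adjusted p = 1.53e-06), and Apoe, a lipid carrier made by macrophages, from 189.5, 242 and 178 to 2851, 4885 and 5252 FPKM (log2 difference 4.37, SE 0.51, adjusted p = 4.56e-05). Ngp, for a neutrophil granule protein, rose from 0.05, 0.57 and 0.7 to 36.6, 33.2 and 12.9 FPKM (log2 difference 4.21, SE 0.51, adjusted p = 5.96e-05). Fcrla and Fcmr, Fc receptor relatives of B cells, rose from 19.1, 22.9 and 20.8 to 175, 315 and 429 FPKM (log2 difference 3.72, SE 0.41, adjusted p = 3.53e-05) and from 141, 194 and 127 to 1445, 2080.3 and 2269 FPKM (log2 difference 3.64, SE 0.36, adjusted p = 1.59e-05). Dok3, an adaptor of B cells and myeloid cells, rose from 10.8, 16.8 and 10.7 to 114, 183 and 215 FPKM (log2 difference 3.62, SE 0.30, adjusted p = 5.8e-06). Of these 8 genes, 5 (Plac8, Apoe, Fcrla, Fcmr and Dok3) followed the library order of the B cell markers, lowest in replicate 1 and highest in the library numbered 4. The macrophage and monocyte markers had the reverse order, at 1805, 1402 and 464 FPKM, so Apoe did not follow them. The remaining rises by the rule, Mzb1, S100a8 and S100a9, belong to the marker lists.

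Marker genes were also read one by one. Of 12 B cell markers 11 were higher, with a median of 2.88. Cd79a, a B cell receptor chain, was 76.5, 123 and 78.03 FPKM in WT and 668, 1215 and 1638 FPKM in Tnfr2-/- cells (log2 difference 3.59, SE 0.34, adjusted p = 1.25e-05). Cd79b and Ms4a1, for the other chain and CD20, rose by 3.47 and 3.32 on the log2 scale. Of 10 plasma cell and immunoglobulin genes 8 were higher, led by Mzb1, a chaperone of antibody-making cells, at 9.48, 9.64 and 11.3 against 114, 219 and 331 FPKM (log2 difference 4.19, SE 0.40, adjusted p = 1.27e-05). The 1 that fell was Ighg1, at 21.2, 36.2 and 20.2 against 0.1, 0.32 and 0 FPKM (log2 difference -4.52, SE 0.40, adjusted p = 9.09e-06). Of 13 macrophage and monocyte genes 10 were higher, among them C1qa, for a complement chain, at 0.06, 0 and 0.06 against 21.5, 16.9 and 3.85 FPKM (log2 difference 3.59, SE 0.50, adjusted p = 0.000169). All 5 tested neutrophil genes were higher. S100a8 was 1.08, 1.65 and 24.3 against 94.8, 171 and 64.4 FPKM (log2 difference 4.30, SE 1.09, adjusted p = 0.00835). S100a9 was 1.16, 0.74 and 19.8 against 57.6, 106 and 47.7 FPKM (log2 difference 3.98, SE 1.11, adjusted p = 0.0137) and was not called without WT replicate 1, WT replicate 2 or Tnfr2-/- replicate 2 (adjusted p 0.0521 to 0.056). Of 8 MHC class II and dendritic cell genes 6 were higher, including H2-Aa, H2-Ab1 and H2-Eb1 at 3.49 to 3.54. Zbtb46 and Itgax fell, and 1 was called lower without replicate 2 of either genotype or the library numbered 4. Flt3, a dendritic cell gene of that list below the filter, was 0.09, 0.26 and 0.29 FPKM in WT and 1.39, 0.76 and 2.57 FPKM in Tnfr2-/- libraries. The 3 tested NK cell genes Klrk1, Klrd1 and Klrc1 fell, by 3.18, 2.52 and 2.14 on the log2 scale. Erythroid genes had 4 of 5 higher, but 2 without WT replicate 1, WT replicate 2, Tnfr2-/- replicate 1 or the library numbered 4. Hbb-bt was 0.36, 0.42 and 0.67 against 8.01, 1.32 and 13.5 FPKM (log2 difference 2.18, SE 0.49, adjusted p = 0.00432). Of 3 tested basophil and mast cell genes, Mcpt8 and Cpa3 were higher and Kit lower, while the sum over all 6 listed was 0.663 times that of WT. No stromal gene reached the filter.

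The B cell covariate left 9 calls. Csf2 kept its call, at a log2 difference of -7.56 (adjusted p = 0.00233). That is a larger fall than its WT level on the log2(FPKM + 1) scale allows. The value is therefore an extrapolation of the model and not a larger observed fall. Fbxo2 (-5.19, adjusted p = 0.00487), Scin (-5.49, adjusted p = 0.0131), Lad1 (-4.54, adjusted p = 0.0304), Cd70 (-4.09, adjusted p = 0.0304) and Wnt3 (-3.86, adjusted p = 0.0353) also kept their call. So did 2 genes outside the naming rule, Idi2 (-4.69, adjusted p = 0.0134), a relative of the isomerase gene Idi1, and the processed pseudogene Rpl10a-ps2 (-4.13, adjusted p = 0.0304). The value of Rpl10a-ps2 is also beyond what its WT level allows. The 1 call upward was Rpl34-ps1 (7.41, adjusted p = 0.00851). Of the genes that kept a lower call, Fbxo2, Scin, Wnt3, Idi2 and Rpl10a-ps2 entered through WT alone and so had to differ, as stated above. Tnfrsf1b itself was at -3.46 (SE 0.84) and missed the threshold (adjusted p = 0.322), although its 95% interval ran from -5.29 to -1.63. Ccl1 and Penk lost the call as well, at -8.04 (adjusted p = 0.235) against -5.59 without the covariate, and at -5.29 (adjusted p = 0.211) against -5.49. Gata3 was at -2.16 with an interval of -4.16 to -0.17. Foxp3 was at 0.29 with an interval of -2.52 to 3.10, and Mki67, a proliferation gene, at -0.43 with an interval of -1.52 to 0.67, against -1.52 and -1.95 without the covariate. The interval of Foxp3 thus still held its value without the covariate, and that of Mki67 did not. Among the rises, S1pr1 was at 0.48 and Apoe at 0.76. Cd79a was at 0.32, but it is among the markers averaged into the covariate, so this shrinkage was built in. The covariate takes away whatever follows the marker level, whether it comes from B cells or not, and these values do not separate those sources.

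**Figure D5:**
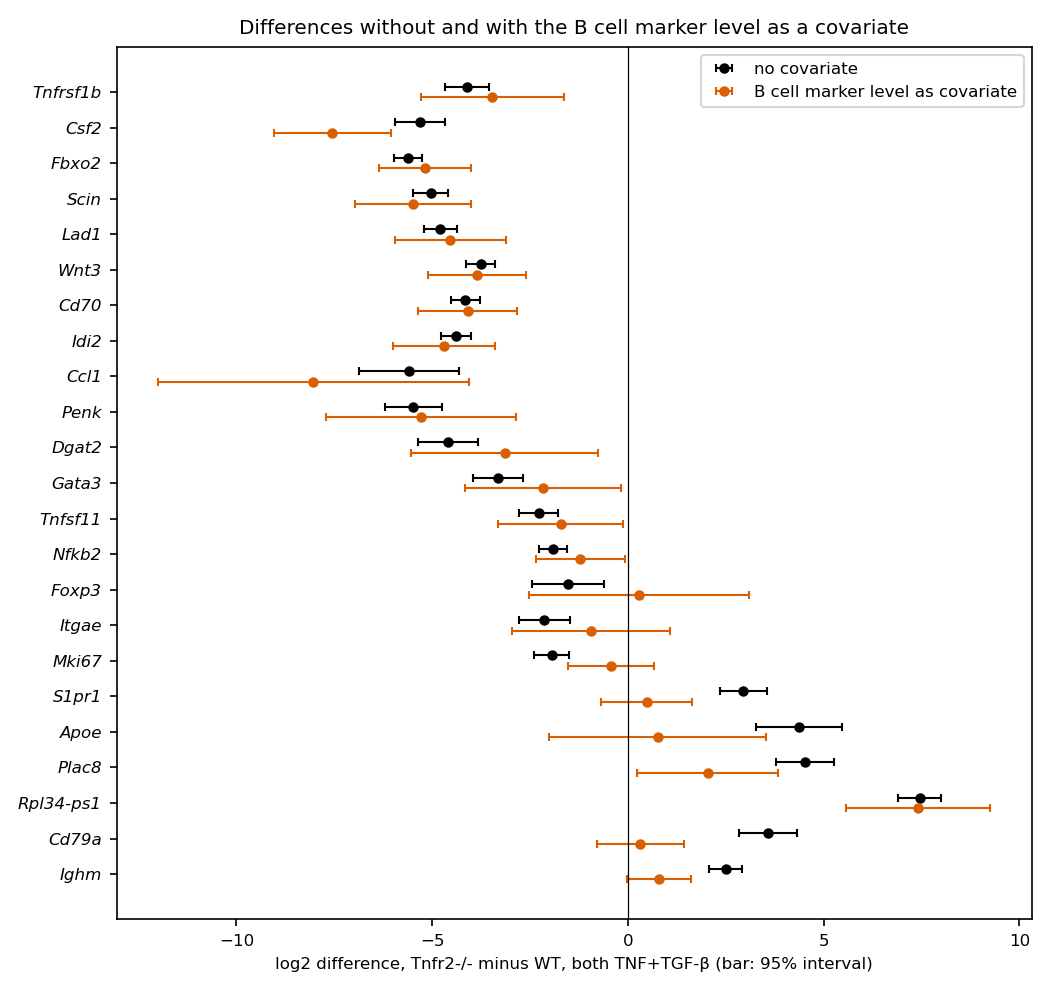
Log2 difference with its 95% interval for 23 genes, without and with the mean level of B cell markers as a covariate. Csf2, Fbxo2, Scin, Lad1, Cd70, Wnt3, Idi2 and Rpl34-ps1 keep their side of 0 and their call, whereas the intervals of Foxp3, Mki67, S1pr1 and Apoe include 0 with the covariate. Cd79a, also drawn, is itself part of the covariate.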

How the data were processed

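RNA was sequenced in bulk from 12 libraries, 4 groups of 3. The deposited table gives 1 FPKM value per gene and library, made by the authors; the unit was inferred, since column sums differ (689045 to 828161) and values times transcript kilobases sum to 900467 to 1010096. The submitters' processing notes name STAR 2.5.4, RSEM 1.3.1 and Trimmomatic, without a version for the last, and the genome mm10; which annotation the authors used is not given in the sources used here. Coordinates came from GENCODE M21 (GRCm38), which held 47224 of the identifiers (99.1%). The Nextera XT kit does not mark strand, so overlapping and antisense genes cannot be told apart. The third Tnfr2-/- column is numbered 4 while the labels carry 1, 2 and 3, so it is tied to its group only.

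Values were fitted as log2(FPKM + 1) with limma 3.58.1 in R 4.3.3 over all 12 libraries, with a mean per group and a variance trend, and adjusted by Benjamini-Hochberg. The fit was tested on simulated data with few changed genes and noise independent between genes. In these data 39.3% of genes were called, so that test does not bear on the calls here. Depth is an estimate from the spacing of low FPKM in 8045 genes with 1 transcript of 800 to 3000 bases, less 300 bases; it is approximate, with 79.3% to 89.2% of values within 0.2 of a whole fragment.

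The members, gene lists and named genes were chosen with earlier results of these data known. Named were 22 fixed genes, the 8 largest rises and falls (called, at least 2-fold, a mean of at least 10 FPKM, no overlap, no predicted genes or receptor segments), the same outside marker lists, and up to 3 called members of each list. Some of these genes are not reported here, though the list counts include them. Any other gene was chosen after its values were seen. Alternatives were the scale (TPM, median ratio, upper quartile), pseudocounts of 0.1 and 0.5, filters, the 6 libraries alone, no variance trend, a replicate block, marker covariates and leaving out each library. TPM without immunoglobulin genes and scaling to T cell receptor constant genes were added after the data were seen.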

Additional observations from a re-analysis of the deposited data

How the results depend on the processing

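Leaving out 1 library gave 1970 to 2579 genes called higher and 1589 to 2669 lower, Tnfrsf1b at -4.24 to -3.92, and log2 ratios of marker sums of 3.02 to 3.53 for B cells (3.27 with all) and 2.49 to 3.27 for macrophages (2.88 with all). With the replicate number as a block, 1930 genes were higher and 1394 lower. Only numbers 1 and 2 are shared, same-numbered samples correlated at 0.124 and -0.017, and the numbers are not taken to pair the samples; the block ended the call of 15 named genes, among them Foxp3, Il2ra and Lta, and left 3 T cell receptor signalling genes lower in place of 9, 1 glycolysis gene in place of 6, 2 MYC list genes in place of 10 and 2 TGF-β pathway genes in place of 5. A filter at 5 FPKM, which tests fewer genes, left 3 interferon, 1 Treg, 5 macrophage and 2 neutrophil genes higher, in place of 7, 3, 10 and 5. With the macrophage markers as a covariate 1210 genes were higher and 1801 lower. With the B cell markers 1 was higher and 8 lower, Tnfrsf1b was at -3.46 (adjusted p = 0.322), and 24 named genes turned sign: Btla -1.38, Ccne2 0.00, Cd274 0.08, Fcrla -0.08, Foxp3 0.29, Hba-a1 -0.57, Hk1 0.03, Ifit3 -0.77, Il2ra 0.58, Il9 0.08, Lss 0.86, Ms4a1 -0.13, Myc 0.40, Nr4a3 0.20, Polr1b 0.88, Rtp4 -0.54, S100a8 -0.28, S100a9 -1.0, Slc16a3 1.11, Slc7a5 0.82, Srm 0.42, Tgfb1 0.08, Tnfrsf9 0.09 and Tnip1 0.06. None of these 24 was called in the new direction, and their standard errors ran from 0.45 (Ms4a1) to 3.34 (S100a8 and S100a9). Ms4a1 is itself among the markers in the covariate, so its shrinkage was built in. The cause was not tested. The TPM scale moved the median of all genes to -0.115 and gave 2078 higher and 2842 lower, 42.2% of calls higher in place of 53.1%; the B cell and macrophage covariates moved the median to 0.14 and -0.123. Of 2422 values of named genes under all alternatives, 2216 kept their direction and their side of the threshold. Depth was estimated from the values, and values near 0.132 to 0.179 FPKM on a transcript of 1 kilobase rest on 3 fragments.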

Other observations

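The order of the 3 Tnfr2-/- libraries followed the calls. B cell markers were lowest in replicate 1 and highest in the library numbered 4, and 40.1% of the 2584 genes called higher had that order, against 12.5% of the 7523 genes not called. The reverse order, highest in replicate 1 and lowest in the library numbered 4, was seen for 58.2% of the 2285 genes called lower and for 30.7% of those not called. Genes of the first kind were 3.59% of those called lower, and genes of the second kind 8.86% of those called higher. Over all tested genes the first kind made up 16.6% and the second 31.2%. The median-ratio scale factors of the Tnfr2-/- libraries also fell in the order 1, 2 and 4, at 1.087, 1.051 and 0.974. The part of this drift in the orders was not tested. The first principal component (34.4% of the variance) put the Tnfr2-/- libraries at 41.2, 62.2 and 77.5 in the order 1, 2 and 4, and all 9 WT libraries between -37.7 and -1.52.

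Ribosomal protein sequences gave unlike values for near copies, all chosen after their values were seen except Rpl34-ps1. Rpl34 (chr3:130726831-130730398) was 636, 579.9 and 721 FPKM in WT and 197, 224 and 173 FPKM in Tnfr2-/- cells (log2 difference -1.70, SE 0.14, adjusted p = 4.81e-06), while its processed pseudogene Rpl34-ps1 (chr6:71124610-71124963) rose from 4.62, 3.21 and 4.73 to 880.1, 1050.3 and 804 FPKM. The assignment of reads between such copies is uncertain. Rpl10a was not called, at 392.31, 389 and 416 against 416, 527 and 410.4 FPKM, while Rpl10a-ps2 (chr13:8940336-8940977), a neighbour of Idi2 (chr13:8952863-8960945), was 12.4, 11.9 and 9.69 against 0, 0.15 and 0 FPKM (log2 difference -3.55, SE 0.18, adjusted p = 2.67e-07). Idi2 was 30.6, 35.4 and 22.1 FPKM in WT and 0.44, 0.45 and 0.38 FPKM in Tnfr2-/- cells (log2 difference -4.39, SE 0.18, adjusted p = 2.4e-08).

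Genes close to the targeted locus on chromosome 4 were read as well, after their values were seen. Within 10 Mb of Tnfrsf1b 159 genes were tested and 39.0% were called, against 38.2% of the 579 tested genes elsewhere on the chromosome. With a change of at least 2-fold 29 were called within 10 Mb (18.2%), 13 of 72 within 5 Mb (18.1%) and 75 of the 579 elsewhere (12.95%). These shares on chromosome 4 count both directions. Among all 12392 genes, 8.53% were higher and 7.87% lower at that size, and the sum of both is the matching share. The macrophage markers C1qa and C1qc are among the genes called within 10 Mb. Whether these shares differ was not tested. Zfp990, a zinc finger gene 0.26 Mb away, was listed at 0 in all 9 WT libraries and was at 5.00, 3.44 and 5.06 FPKM in Tnfr2-/- libraries (adjusted p = 7.98e-07). It entered the comparison through the Tnfr2-/- libraries alone. Fv1, a retrovirus restriction gene 2.62 Mb away, was 1.02, 0.77 and 0.98 FPKM in WT and 4.82, 7.45 and 4.92 FPKM in Tnfr2-/- cells (log2 difference 1.79, adjusted p = 2.66e-05). Fbxo2 lies 2.91 Mb from Tnfrsf1b, as does its neighbour Fbxo44, which was 7.27, 8.05 and 6.43 FPKM in WT and 0.96, 0.58 and 0 FPKM in Tnfr2-/- cells (log2 difference -2.50, adjusted p = 1.09e-05). The Fbxo44 means were 4.79 FPKM in Th0 and 8.52 FPKM under IL-6 plus TGF-β. Its Tnfr2-/- levels thus lay below Th0 as well, while those of Fbxo2 were near the Th0 mean of 0.35 FPKM.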
